A study of Sus scrofa with 6 samples.

Results

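Genes of the egg coat and of oocyte growth factor signalling were followed in messenger RNA libraries of 8-cell embryos of the pig, Sus scrofa. The set holds 9 genes, fixed by name: ZP2, ZP3 and ZP4 of the zona pellucida, the protease gene ASTL, the growth factor genes GDF9 and BMP15, and the transcription factor genes FIGLA, NOBOX and LHX8. All 9 were found among the 29874 genes of the table, in 13 transcript rows, and 8 of them passed the filter for testing. One group has the genotype label LncT KD and received siRNA by injection into the cytoplasm (3 libraries, called knockdowns 1 to 3), and the other is labelled control (3 libraries). Whether control embryos were injected, how many embryos went into a library and how the embryos were produced are not given in the labels used here. The labels and the table do not identify LncT, so its own level was not examined. Nothing in the labels ties a replicate to a separate collection of embryos. All p-values here therefore describe the spread between these 6 libraries, which may be technical.

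The zona pellucida is the glycoprotein coat that the growing oocyte secretes around itself. In the pig it is built from ZP2, ZP3 and ZP4, binds sperm at fertilization and surrounds the cleaving embryo until hatching. GDF9 and BMP15 are related ligands of the transforming growth factor beta family, which the oocyte secretes to steer the follicle cells around it. FIGLA, NOBOX and LHX8 are transcription factors of early oocytes, and in the mouse FIGLA is needed for zona gene expression and NOBOX for expression of Gdf9 and Bmp15. All of these genes are known for expression in the oocyte, so their transcripts in a cleaving embryo are generally regarded as a maternal store.

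The values are FPKM, fragments scaled to transcript length and library size, and levels of different genes are set side by side on this scale. Whether all genes were captured alike was not tested. The ubiquitously expressed gene ACTB was listed at 0.54 to 0.75 FPKM in the knockdowns and 0.78 to 1.56 FPKM in the controls. Comparisons of level between genes below are therefore comparisons of the listed values. Relative depth, as coverage per FPKM, was 6.29 to 9.41 in the knockdowns and 6.45 to 7.03 in the controls. Mitochondrial genes held 22.8% to 38.3% of FPKM in the knockdowns and 18.5% to 35.4% in the controls. Control 3 stood apart from its group: over the 10417 tested genes its Spearman correlation was 0.900 to 0.941 with the knockdowns, against 0.611 and 0.655 with controls 1 and 2. Test results are therefore given with and without control 3, a choice made from these same values. All 10 markers of oocytes and early embryos reached 1 FPKM in at least 1 library, with sums of 1822 to 2271 FPKM in the knockdowns and 1610 to 3967 in the controls. BTG4 was the largest part of each sum. The marker DPRX was at 31.4, 23.3 and 34.7 FPKM in the knockdowns and 0, 0.62 and 26.1 FPKM in the controls. Of 15 cumulus and granulosa markers in the table, 5 reached 1 FPKM, namely INHBA, VCAN, STAR, VIM and TNFAIP6. Sums over the list were 11.08 to 15.4 FPKM in the knockdowns and 10.2 to 12.5 in the controls. INHBA was at 4.34, 5.66 and 5.52 FPKM in the knockdowns and 7.87, 6.28 and 4.80 FPKM in the controls. TNFAIP6 was at 1.59, 1.46 and 1.74 FPKM in the knockdowns and 0.086, 0.35 and 0.54 FPKM in the controls. Every knockdown was thus above every control for TNFAIP6, where 4.38% of the tested genes had this order. FOXL2, INHA, NR5A1 and GJA1 were listed at 0 in every library. Of 12 sperm markers, 1 reached 1 FPKM, with sums of 1.99 to 3.10 FPKM in the knockdowns and 1.73 to 3.91 in the controls. It was ODF2, at 1.32, 2.39 and 1.97 FPKM in the knockdowns and 1.97, 1.24 and 2.88 FPKM in the controls. The sperm markers PRM1, PRM2, TNP1, ACR, ODF1 and SPACA1 were listed at 0 throughout. Of 6 markers of oviduct epithelium, 2 reached 1 FPKM, with sums of 42.9 to 47.4 FPKM in the knockdowns and 14.1 to 56.3 in the controls, most of it EPCAM. Of 4 blood markers, 0 reached 1 FPKM, with sums of 0.51 to 0.81 FPKM in the knockdowns and 0.049 to 0.18 in the controls. The part of these markers in the results below was not tested. In such bulk libraries, fewer cells of a kind and less RNA per cell cannot be told apart.

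The 9 genes spanned a wide range of levels. BMP15 was the most abundant, at 369, 554 and 734 FPKM in knockdowns 1, 2 and 3 and 765, 851 and 327 in controls 1, 2 and 3. It ranked 59th to 140th among the genes above 0 in the knockdowns and 54th to 194th in the controls. GDF9 came next, followed by ZP4. LHX8, ZP2, ZP3, ASTL, NOBOX and FIGLA came after them in that order of their means over the 6 libraries. Each gene exceeded the next one in 6 of 6 libraries. The ranges over libraries did not overlap between ZP4 and LHX8, between LHX8 and ZP2, or between ZP2 and ZP3. They did overlap for the other neighbours, and the narrowest steps were GDF9 over ZP4, with a ratio of 1.05 to 3.15, and ASTL over NOBOX, with 1.01 to 5.28. The 2 growth factor genes and ZP4 were above at least 96.8% of the genes above 0 in every library, while NOBOX was above 35.1% to 63.5% of them.

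**Figure D1:**
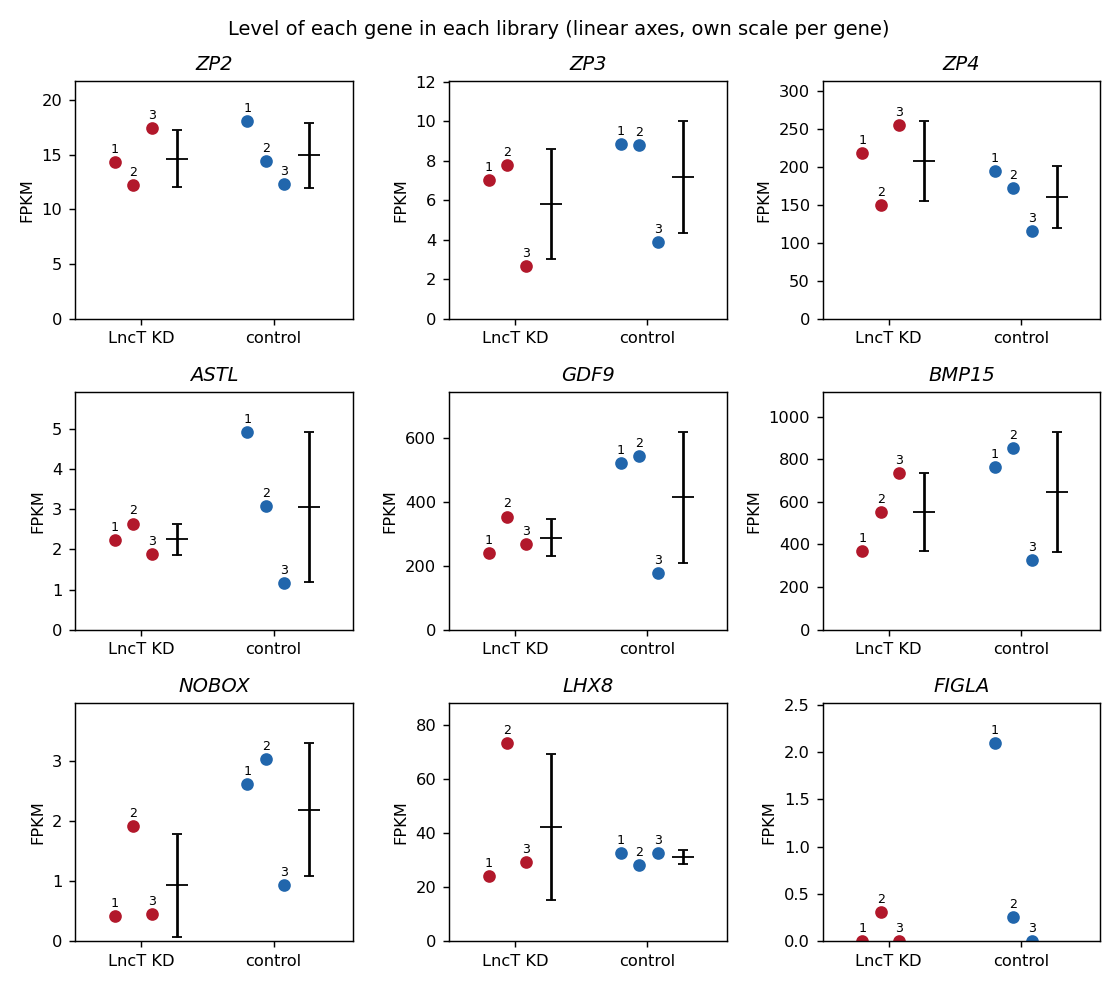
Level of the 9 genes in FPKM (vertical axes, linear, a separate scale for each gene) in the 3 LncT KD libraries (red) and the 3 control libraries (blue), with numbers for the replicates. Bars are the mean and SD of each group (n = 3), left out for FIGLA, which was listed at 0 in 3 libraries; control 3 is the lowest control for 8 of the genes, among them GDF9 at 177 FPKM against 521 and 542 in controls 1 and 2.

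Among the coat genes, ZP2 (chromosome 3, 24863730 to 24877522, Sscrofa11.1) encodes the subunit to which sperm bind in the mouse zona. It was at 14.3, 12.2 and 17.4 FPKM in the knockdowns and 18.1, 14.4 and 12.3 FPKM in the controls. The values of the groups lay across each other. The means were 14.6 ± 2.60 FPKM in the knockdowns and 14.9 ± 2.95 FPKM in the controls (SD, n = 3 each). The log2 change of FPKM + 1, knockdown minus control, was -0.02 (95% interval -0.76 to 0.71, limma adjusted p = 0.985). Its span overlaps that of TMEM159 (24876631 to 24910841), annotated in RefSeq as a long non-coding RNA and listed at 24.0, 24.6 and 7.35 FPKM in the knockdowns and 56.1, 12.9 and 12.6 FPKM in the controls. The strand setting of the counting is not given, so reads from the shared stretch cannot be told apart.

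ZP3 (chromosome 3, 9934760 to 9944924) encodes a core filament subunit of the coat. Its levels were 7.05, 7.77 and 2.64 FPKM in the knockdowns and 8.88, 8.79 and 3.90 FPKM in the controls. The third library of each group was the low one, and the groups overlapped. The log2 change was -0.29 (95% interval -1.42 to 0.83, limma adjusted p = 0.856). ZP3 was below ZP2 in every library, with a ZP3 to ZP2 ratio of 0.49, 0.64 and 0.15 in the knockdowns and 0.49, 0.61 and 0.32 in the controls.

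ZP4 (chromosome 14, 53577138 to 53584544) encodes the third subunit of the pig coat, which binds boar sperm together with ZP3. Its transcript outweighed the other 2 by far, making up 91.1%, 88.3% and 92.7% of the summed FPKM of the 3 coat genes in the knockdowns and 87.9%, 88.1% and 87.7% in the controls. ZP4 itself was at 219, 150.4 and 255 FPKM in the knockdowns and 195, 172 and 116 FPKM in the controls. Knockdowns 1 and 3 lay above every control and knockdown 2 within the control range. The log2 change was 0.37 (95% interval -0.45 to 1.18, limma adjusted p = 0.788). It was 0.15 without control 3, which was the lowest library for this gene.

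The ratio of ZP4 to ZP2 within a library does not depend on how the library is scaled, but the strand limit named for ZP2 holds for it. It was 15.3, 12.3 and 14.7 in the knockdowns and 10.8, 11.98 and 9.40 in the controls, a mean of 14.1 ± 1.57 and 10.7 ± 1.29 (SD, n = 3 each). Every knockdown lay above every control, with 12.3 as the lowest knockdown and 11.98 as the highest control. This was 1 of 10 ratios between the genes that were formed, several of which share a gene, and 2 of the 10 had groups that did not overlap. The share of such ratios among gene pairs in general was not computed, so this count is no result about these genes. The ratios are given as a description, with no test.

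**Figure D2:**
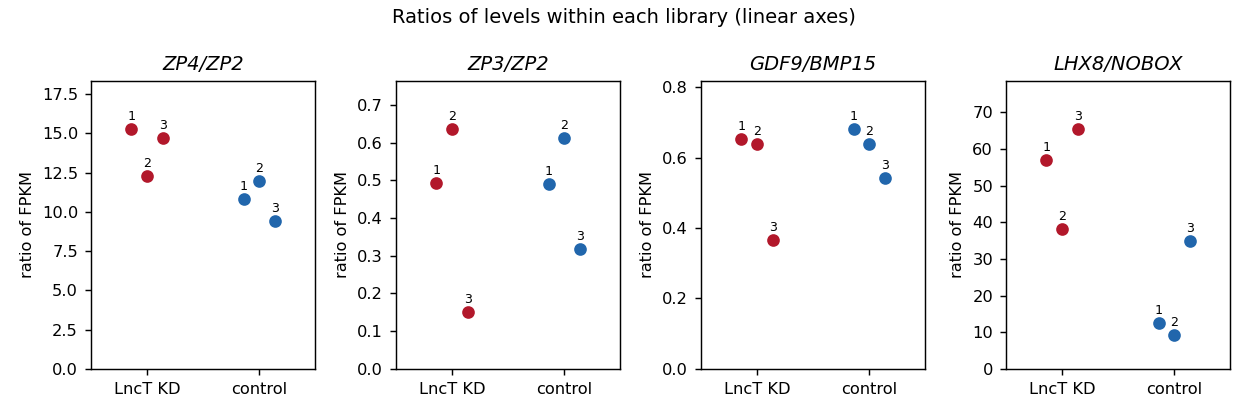
Ratio of FPKM values between 2 genes within each library (vertical axes, linear) for ZP4 over ZP2, ZP3 over ZP2, GDF9 over BMP15 and LHX8 over NOBOX, in LncT KD (red) and control (blue) libraries, with numbers for the replicates. The groups do not overlap for ZP4 over ZP2 or for LHX8 over NOBOX, and the lowest point of the other panels is knockdown 3.

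ASTL (chromosome 3, 47058104 to 47071681) encodes ovastacin, the metalloprotease of the cortical granules that cleaves ZP2 after fertilization. It was at 2.24, 2.64 and 1.88 FPKM in the knockdowns and 4.92, 3.07 and 1.17 FPKM in the controls. All knockdowns lay below controls 1 and 2 and above control 3. The log2 change was -0.21 (95% interval -1.18 to 0.77, limma adjusted p = 0.879). The mean read depth over the transcript was 11.8 to 24.9 in the knockdowns and 7.53 to 32.9 in the controls, so this gene is measured less closely than BMP15, whose depth was 2106 to 5983 over the 6 libraries.

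GDF9 (chromosome 2, 135181494 to 135184451) stood at 241, 354 and 269 FPKM in the knockdowns and 521, 542 and 177 FPKM in the controls. All 3 knockdowns lay between control 3 and the other controls. The means were 288 ± 58.8 FPKM in the knockdowns and 413 ± 205 FPKM in the controls (SD, n = 3 each). The log2 change was -0.38 (95% interval -1.51 to 0.76, limma adjusted p = 0.820).

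BMP15 (chromosome X, 44613122 to 44620575), whose values stand above, had means of 552 ± 182 FPKM in the knockdowns and 648 ± 281 FPKM in the controls (SD, n = 3 each). Knockdown 3 came close to controls 1 and 2, and knockdown 1 close to control 3. Its log2 change was -0.17 (95% interval -1.24 to 0.91, limma adjusted p = 0.912). The 2 ligands can pair into a dimer, and the ratio of GDF9 to BMP15 transcripts was 0.65, 0.64 and 0.37 in the knockdowns and 0.68, 0.64 and 0.54 in the controls. Knockdown 3 alone lay below every control in this ratio. GDF9 was below BMP15 in all 6 libraries.

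Of the transcription factor genes, NOBOX (chromosome 9, 113348363 to 113354504), an oocyte homeobox factor, was at 0.42, 1.93 and 0.45 FPKM in the knockdowns and 2.62, 3.04 and 0.93 FPKM in the controls. Knockdowns 1 and 3 lay below every control, and knockdown 2 lay between control 3 and control 1. Its log2 change was -0.74 (95% interval -1.75 to 0.27, limma adjusted p = 0.775). For a gene this low the change depends on the pseudocount: it was -1.31 with 0.1 FPKM added and -0.28 with 5 FPKM added. The mean read depth of NOBOX was 2.82 in knockdown 1 and 2.83 in knockdown 3.

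LHX8 (chromosome 6, 138074673 to 138102025), a LIM homeobox factor, was at 24.1, 73.5 and 29.4 FPKM in the knockdowns and 32.6, 28.3 and 32.6 FPKM in the controls. Knockdown 2 was the high library and the controls lay close together. The log2 change was 0.26 (95% interval -0.81 to 1.33, limma adjusted p = 0.864), and it turned to -0.22 without knockdown 2. One of its 4 annotated transcripts carried 97.6% of the FPKM, and a second one was at 0.81 and 3.59 FPKM in knockdowns 1 and 2 and 0.90 FPKM in control 3, and listed at 0 elsewhere. The other pair of transcripts was listed at 0 in every library. Its span overlaps that of the long non-coding RNA gene LOC110261207 (138099741 to 138114064), and the strand limit named for ZP2 holds here too. The ratio of LHX8 to NOBOX was 56.9, 38.1 and 65.4 in the knockdowns and 12.5, 9.31 and 34.9 in the controls, so every knockdown lay above every control. With NOBOX at 0.42 and 0.45 FPKM in knockdowns 1 and 3, this ratio is measured loosely.

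FIGLA (chromosome 3, 71709580 to 71723760), a basic helix-loop-helix factor, was listed at 0 in knockdowns 1 and 3 and in control 3. It stood at 0.31 FPKM in knockdown 2, and at 2.1 and 0.25 FPKM in controls 1 and 2. Control 1 was thus the library that held most of it, at a mean read depth of 14.0. With a mean under 1 FPKM, FIGLA was not tested.

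With all 6 libraries, 0 of the 8 tested genes passed the limma test at an adjusted p of 0.05, and 0 had an unadjusted p under 0.05. Over all genes tested, 0 of 10417 passed (0%), and 436 had an unadjusted p under 0.05. Of the 8 genes, 6 had a log2 change below 0, with a median of -0.19, while 49.6% of all tested genes were below 0, with a median of 0.005. The sign of ZP2, ZP3, BMP15, ASTL and LHX8 turned when 1 library was left out, while GDF9, NOBOX and ZP4 kept theirs in each of the 6 such fits. The knockdown and control values overlapped for all 9 genes, where 2.86% of the tested genes had every knockdown below every control and 4.38% had every knockdown above every control. The 95% intervals of the 8 genes reached down to between -0.45 and -1.75 and up to between 0.27 and 1.33 on the log2 scale.

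**Figure D3:**
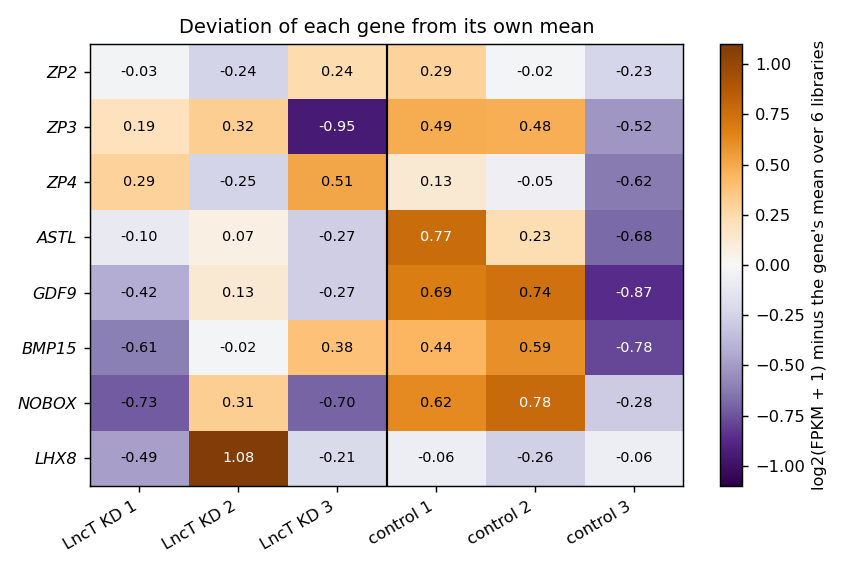
Deviation of log2(FPKM + 1) from the gene's mean over the 6 libraries (colour scale and printed values), with the 8 tested genes as rows and the libraries as columns, LncT KD left of the line and control right of it. Control 3 is below 0 for all 8 genes, from -0.87 for GDF9 to -0.06 for LHX8, while control 1 is above 0 for 7 of them.

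Control 3 held less of most of these transcripts than controls 1 and 2. Its FPKM was 0.29 times the mean of controls 1 and 2 for ASTL, 0.33 times for GDF9 and NOBOX, 0.40 times for BMP15 and 0.44 times for ZP3. It was 0.63 times that mean for ZP4, 0.76 times for ZP2 and 1.07 times for LHX8. For ZP4, ASTL, GDF9 and BMP15 control 3 lay below every knockdown, and for the remaining 5 genes it lay within the knockdown range. The plot of deviations by library shows this split.

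Control 3 was left out because its values lie near the knockdowns, which by itself widens the difference between the groups. The p-values without it are therefore a description and no independent test. Without control 3, GDF9 was the gene of the set that passed the threshold. Its log2 change was -0.90 (95% interval -1.46 to -0.35, limma adjusted p = 0.0298). GDF9 was lower in 3 of 3 knockdowns than in controls 1 and 2, and higher in 3 of 3 than in control 3. Over its alternatives the adjusted p of GDF9 ranged from 0.0298 to 0.9998. NOBOX had a log2 change of -1.07 (95% interval -1.93 to -0.21, limma adjusted p = 0.0662). BMP15, ASTL and ZP3 had changes of -0.60, -0.60 and -0.63, and ZP2, ZP4 and LHX8 of -0.15, 0.15 and 0.29, with limma adjusted p-values of 0.146 to 0.701. With this smaller set of libraries 7.22% of all tested genes passed as lower and 20.2% as higher, and read against the 7.22% a single gene of 8 is no result about the set. For 5 of the 8 tested genes, namely ZP3, ASTL, GDF9, BMP15 and NOBOX, every knockdown lay below controls 1 and 2, where 30.5% of the tested genes did.

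**Figure D4:**
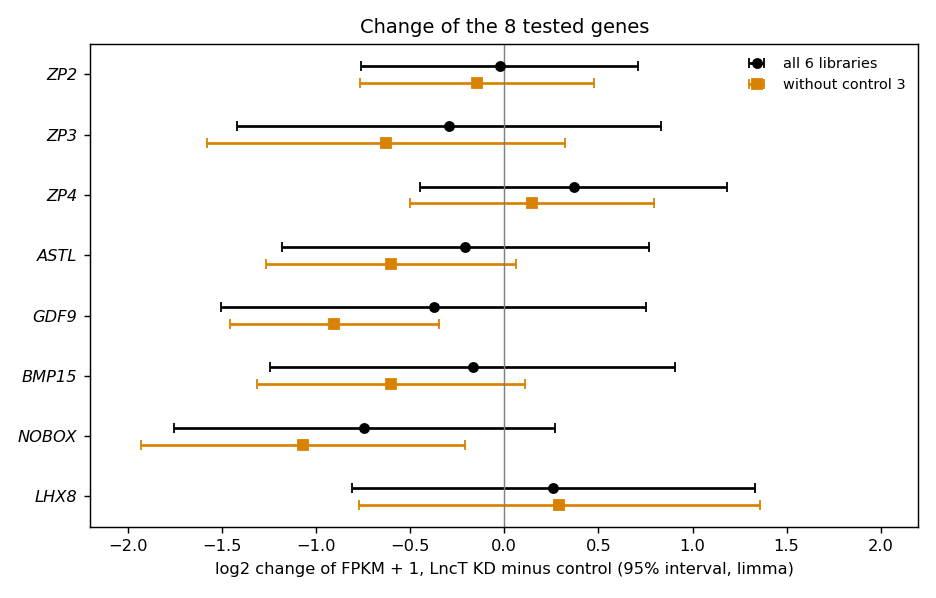
Log2 change of FPKM + 1, LncT KD minus control, for the 8 tested genes (rows) with 95% intervals from limma, with all 6 libraries (black circles) and without control 3 (orange squares). With 6 libraries every interval includes 0; without control 3 those of GDF9 (-1.46 to -0.35) and NOBOX (-1.93 to -0.21) lie below 0, of which GDF9 passed after adjustment over all genes.

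Genes that act with this set were counted in lists. Over all tested genes, 49.6% were below 0 with 6 libraries. Without control 3, 7.22% of them passed as lower and 20.2% as higher. Of the receptors and signal carriers of GDF9 and BMP15, 12 of 16 were tested, 0 passed with 6 libraries, 10 were below 0 and the median log2 change was -0.21. BMPR2, the type II receptor that both ligands bind, was at 9.49, 10.2 and 15.8 FPKM in the knockdowns and 30.6, 26.4 and 8.35 FPKM in the controls, and control 3 was again the low control. TGFBR1, the type I receptor of GDF9, was at 3.33, 5.29 and 3.26 FPKM in the knockdowns and 2.11, 1.13 and 3.24 FPKM in the controls. The groups did not overlap, by the narrow step from 3.24 to 3.26 FPKM. Of all tested genes, 4.38% had every knockdown above every control. SMAD5, a signal carrier of the BMP branch and the most abundant of the list, was at 49.6, 57.1 and 63.0 FPKM in the knockdowns and 119, 92.4 and 39.2 FPKM in the controls. Without control 3, 2 members passed as lower, namely BMPR2 (log2 change -1.23, limma adjusted p = 0.0201) and SMAD5 (-0.88, limma adjusted p = 0.0337), and 0 as higher.

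Of 15 other regulators of oocyte transcription, 13 were in the table, 9 were tested and 0 passed with 6 libraries, with 7 below 0 and a median of -0.18. TAF4B, a germ cell subunit of the TFIID complex, was the most abundant, at 13.9, 22.7 and 22.1 FPKM in the knockdowns and 5.47, 5.09 and 25.7 FPKM in the controls. TBPL2, a TBP relative of growing oocytes, was at 5.23, 4.13 and 3.16 FPKM in the knockdowns and 12.6, 9.34 and 3.58 FPKM in the controls. For both genes control 3 lay with the knockdowns or beyond them. Without control 3, 2 members passed as lower, TBPL2 and BNC1, and TAF4B passed as higher (log2 change 1.68, limma adjusted p = 0.00615). Over all tested genes those shares were 7.22% lower and 20.2% higher.

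A list of 18 genes was drawn up for the egg surface, the cortical granules and zona processing. It also held UCHL1, ZAR1 and ZAR1L, which fall outside these classes. Of the 18, 15 were in the table, 7 were tested and 0 passed with 6 libraries, with 4 below 0 and a median of -0.02. CD9, an egg membrane tetraspanin needed for sperm fusion in the mouse, was at 8.27, 21.8 and 18.5 FPKM in the knockdowns, was listed at 0 in controls 1 and 2, and was at 28.8 FPKM in control 3. ITGB1, an integrin subunit, was at 5.65, 5.23 and 7.36 FPKM in the knockdowns and 0.95, 0.55 and 5.89 FPKM in the controls. UCHL1, a deubiquitinase abundant in oocytes, led the list in level at 116, 173 and 152 FPKM in the knockdowns and 215, 156 and 94.4 FPKM in the controls. Without control 3, CD9 and ITGB1 passed as higher, where 20.2% of all tested genes did, and 0 members as lower, where 7.22% did. CD9 and ITGB1 are membrane proteins of many cell types.

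A list of 18 genes held other secreted factors and ligands, and the receptor KIT. Of these, 8 were tested, KIT among them, and 0 passed with 6 libraries, with 5 below 0 and a median of -0.06. BMP4, a ligand of the same family, was at 33.4, 46.6 and 24.7 FPKM in the knockdowns and 3.33, 15.5 and 20.7 FPKM in the controls. Its groups did not overlap, as for the 4.38% of all tested genes with every knockdown above every control. GDF3, a further relative, was at 15.3, 22.2 and 17.8 FPKM in the knockdowns and 0.98, 5.26 and 23.2 FPKM in the controls. KITLG, the ligand of the KIT receptor, was at 24.1, 43.5 and 35.8 FPKM in the knockdowns and 31.0, 27.3 and 18.2 FPKM in the controls. Without control 3, BMP4 (log2 change 2.04, limma adjusted p = 0.0319) and GDF3 (2.45, limma adjusted p = 0.00918) passed as higher and 0 members as lower. Over all tested genes 20.2% passed as higher and 7.22% as lower.

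For comparison, 16 of 18 maternal-store genes outside the set were tested, of which 15 were below 0, with a median of -0.45, and 0 passed with 6 libraries. BTG4, an adaptor of maternal mRNA decay, was at 1381, 1284 and 1042 FPKM in the knockdowns and 2392, 2147 and 832 FPKM in the controls. NPM2, a nuclear chaperone of the egg, was at 10.8, 30.7 and 10.1 FPKM in the knockdowns and 59.0, 25.1 and 12.9 FPKM in the controls. BRDT, a bromodomain protein of germ cells, was the member above 0, at 158, 218 and 251 FPKM in the knockdowns and 60.4, 93.2 and 226 FPKM in the controls. Among the tested members, DAZL had every knockdown below every control, as 2.86% of all tested genes did. It was at 46.6, 48.5 and 45.6 FPKM in the knockdowns and 76.5, 78.2 and 60.2 FPKM in the controls. Without control 3, 7 members passed as lower and 1 as higher, beside 7.22% and 20.2% of all tested genes. Those lower were MOS, KPNA7, BTG4, PADI6, CPEB1, LIN28A and DAZL, and the one higher was BRDT. MOS had the lowest change among them (log2 change -1.64, limma adjusted p = 0.00429). Of 12 ubiquitously expressed genes, 10 were tested, 5 were below 0 and the median was 0.10, and 0 passed with or without control 3. SDHA too had every knockdown below every control, at 2.06, 2.47 and 2.25 FPKM in the knockdowns and 3.98, 2.59 and 4.10 FPKM in the controls. So did ACTB, which the filter left untested. It was at 0.56, 0.75 and 0.54 FPKM in the knockdowns and 1.07, 1.56 and 0.78 FPKM in the controls. GAPDH was at 2.36, 1.67 and 9.50 FPKM in the knockdowns and 1.88, 2.18 and 1.35 FPKM in the controls. RPLP0 was at 158, 148 and 149 FPKM in the knockdowns and 119, 51.8 and 158 FPKM in the controls. PPIA was at 146, 256 and 227 FPKM in the knockdowns and 275, 178 and 256 FPKM in the controls.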

How the data were processed

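Per the submitters' processing notes, StringTie 2.1.7, Bowtie2 2.3.5 and cutadapt were used with the build Sscrofa11.1. Which tool did which step, with what strand setting, is not stated there. Per the file headers, the deposited table gives coverage (a signal of mean read depth), FPKM and TPM for each of 81774 transcripts and each library. Counts of reads were not used, so intervals from counting are not given. Columns were matched by name, with SL read as the siL of the titles, and 9 value columns that match no title were not used. The values stand for LncT only if that reading holds.

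FPKM was summed per gene. Rows whose name cell held a number (1758) or a date (129) were renamed through their accession. Coordinates are those of the RefSeq table of Sscrofa11.1. Genes averaging 1 FPKM or more were tested with limma 3.58.1 (R 4.3.3) on log2(FPKM + 1), a scale that understates changes of low genes, two-sided, group being the sole term and the prior variance following the mean, and Benjamini-Hochberg adjustment over all genes tested. The script was tested on simulated data. Tables and plots used Python 3.11.15, pandas 2.3.3 and matplotlib 3.10.9.

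The genes of the set and the lists were chosen with earlier results of these data known. The text names all 9 genes, and from each list the 2 tested members furthest from 0 and the most abundant one. BNC1, DAZL, SDHA, ACTB, the markers given by name (DPRX among them) and the list members that passed without control 3 were named after their values were seen.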

Additional observations from a re-analysis of the deposited data

How the results depend on the processing

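Leaving out each library in turn moved the count of genes past the adjusted threshold between 0 and 2854 and that of the set between 0 and 1, and both upper counts arose without control 3 alone. The count of the set below 0 was 3 to 6 of 8, lowest without control 1. The log2 changes then ran from -0.15 to 0.12 for ZP2, -0.63 to 0.11 for ZP3, -0.60 to 0.094 for BMP15, -0.60 to 0.12 for ASTL and -0.22 to 0.57 for LHX8, so these turned sign. Those of GDF9 (-0.90 to -0.10), NOBOX (-1.08 to -0.54) and ZP4 (0.15 to 0.58) did not. Counts past the threshold were 0 to 2 for the receptors, 0 to 3 for the transcription regulators, 0 to 2 for the egg surface genes, 0 to 2 for the secreted factors and 0 to 8 for the maternal store, the upper ones without control 3. Array weights, 0.11 for control 3 and 0.79 to 2.31 for the others, called 3405 genes and 2 of the set, GDF9 (limma adjusted p = 0.0358) and NOBOX (limma adjusted p = 0.0483). The cause was not tested. With the replicate number as a block, 0 genes passed and 747 had an unadjusted p under 0.05. Same-numbered libraries correlated at 0.085, 0.063 and 0.23 in their deviations, and differently numbered ones at -0.19 to 0.11. With 3 libraries in each group, these values cannot tell whether the numbers mark pairs. Other pseudocounts, filters, TPM and median-of-ratios scaling left 0 genes past the threshold. Quantile normalization did too, and moved the median of all genes to -0.17. With a filter of 5 FPKM, ASTL and NOBOX were not tested. Read depth limits NOBOX, ASTL and FIGLA most.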

Other observations

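The genes of the set were also measured beside the maternal store of the same library. This measure was added after seeing the data: from log2(FPKM + 1) of each gene, the mean over the 16 tested maternal-store genes was subtracted. That mean was 5.0, 5.47 and 5.01 in the knockdowns and 5.94, 5.74 and 4.91 in the controls. GDF9 stood 2.92, 3.0 and 3.07 above it in the knockdowns and 3.08, 3.34 and 2.57 above it in the controls. The mean difference of GDF9, knockdown minus control, was -0.003 with all libraries and -0.22 without control 3. ZP4 stood 2.78, 1.77 and 2.99 above it in the knockdowns and 1.67, 1.69 and 1.95 above it in the controls, where knockdown 2 was the one within the control range. Its mean difference was 0.74 with all libraries and 0.83 without control 3. LHX8 was at -0.35, 0.74 and -0.08 in the knockdowns and -0.87, -0.87 and 0.16 in the controls, a mean difference of 0.63 with all libraries and 0.98 without control 3. NOBOX was at -4.49, -3.93 and -4.47 in the knockdowns and -4.09, -3.73 and -3.96 in the controls, a mean difference of -0.37 with all libraries and -0.39 without control 3. With all libraries the groups overlapped on this measure for all 8 tested genes of the set, where 4.71% of all tested genes had every knockdown above every control and 0.93% had every knockdown below. Without control 3, every knockdown lay above both controls for ZP4 and LHX8, as for 56.0% of all tested genes, and below both for GDF9, as for 4.41% of them. No test was run on this measure.

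The 5 genes whose log2(FPKM + 1) ran most like the mean deviation of the 8 tested genes over the 6 libraries were SVOPL, PXK, DNM1L, HMCES and WDR20, out of 4609 named genes averaging 5 FPKM or more. Their Pearson correlations were 0.993 to 0.995, given as a description since all values come from the same 6 libraries and share the distance between control 3 and its group. HMCES, which binds damaged sites in single-stranded DNA, was at 11.5, 25.7 and 13.7 FPKM in the knockdowns and 57.3, 49.2 and 5.23 FPKM in the controls. DNM1L, the GTPase of mitochondrial fission, was at 9.46, 12.1 and 10.4 FPKM in the knockdowns and 13.7, 13.1 and 8.66 FPKM in the controls.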
